A study of Homo sapiens with 6 samples.

Results

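The transcripts of 10 cyclin and cyclin-dependent kinase (CDK) genes, CCNA2, CCNB1, CCND1, CCND3, CCNE1, CCNE2, CDK1, CDK2, CDK4 and CDK6, were examined in HGC-27 cells exposed to the peptide GLUP. They were taken by symbol and are 10 of 62443 genes in the deposited table. HGC-27 is an established human gastric cancer line, and 6 RNA-sequencing libraries were compared, 3 of a control (Con) and 3 of GLUP. GLUP is a disulfide-cyclized peptide built on the TEAD4-binding motif of VGLL4 and designed to glue molecules of the Hippo pathway transcription factor TEAD4 together. The labels list Con as receiving nothing, the methods name the peptide's storage buffer as the control, and the results and the methods of the study differ on the length of the treatment. The study counts CCNA2 among the TEAD signature genes that GLUP lowered in its RNA sequencing of HGC-27 cells. It also reports less RNA polymerase II and less of the histone mark H3K27ac at the CCNA2 promoter.

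Cyclins are the regulatory subunits that switch on CDKs, and their rise and destruction order the cell cycle. D-type cyclins with CDK4 or CDK6 begin the phosphorylation of the retinoblastoma protein in G1, cyclin E with CDK2 completes it at entry into S phase, cyclin A2 serves CDK2 and then CDK1 through S phase and G2, and cyclin B1 with CDK1 drives mitosis. Because several of these genes are transcribed mainly in a given phase, fewer cells in a phase and less RNA per cell cannot be told apart in a library made from a whole culture.

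Values are FPKM, fragments scaled by transcript length and by the size of the library, so that levels can be compared between genes. The libraries summed to 909735 to 965147 FPKM, with 20061 to 21498 genes above 0. Read depth is unknown, as the table gives no counts. Con replicate 2 stood apart, with a mean correlation of 0.898 with the other 5 libraries across tested genes, against 0.954 to 0.964 for the others. Deviations of the libraries from the gene means followed GC content, with Spearman correlations across genes of -0.595 in Con replicate 2 and -0.339 in Con replicate 1, compared with 0.338 to 0.540 in Con replicate 3 and the GLUP libraries. Of the epithelial markers, EPCAM and CDH1 stayed at or under 0.124 FPKM and KRT8, KRT18 and KRT19 lay between 0.764 and 2.51 FPKM. Of the gastric mucosa markers, TFF1, TFF2, GKN1 and PGC were listed at 0 in all 6 libraries, while the mesenchymal list was mixed, with VIM between 222 and 387 FPKM, FN1 between 0.644 and 3.25 FPKM and CDH2 at most 0.0508 FPKM. Of the fibroblast list, LUM lay between 47.2 and 76.7 FPKM and DCN between 16.0 and 41.3 FPKM, COL1A1 between 2.86 and 6.90 FPKM, and COL1A2 and PDGFRA stayed under 1 FPKM. Summed over 4 immune genes the level was at most 0.0440 FPKM. The summed epithelial list was 2.97 to 3.70 FPKM in Con and 5.18 to 6.06 FPKM in GLUP, and its part in the results below was not tested.

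The mitotic pair, CDK1 and CCNB1, and the S-phase cyclin CCNE2 were lower in every GLUP library than in every Con library, by 0.94, 0.64 and 0.84 on the log2(FPKM + 1) scale. CDK6 was also lower in all 3 GLUP libraries, at a level under 0.4 FPKM, so that 4 of the 10 genes lay entirely below Con. Among the 8 members that reached the minimum level for testing these were 3, beside 22.7% of all tested genes. Of these 3, CCNE2 reached the minimum only through its Con values, which favoured a lower value in GLUP. CCNA2, CCND1, CCND3, CCNE1, CDK2 and CDK4 overlapped between the groups. None of the 10 genes passed an adjusted p of 0.05 in limma, and neither did any of the 7406 genes tested (0%, with 1606 at an unadjusted p under 0.05). When a trend in GC content and length was removed, the differences of CDK1, CCNE2 and CCNB1 were -0.25, -0.15 and -0.15. That removal also moved the median difference of all tested genes, from -0.23 to 0.01. The ratio of CCNB1 to CCNA2 was lower in every GLUP library than in every Con library. Its exact permutation p was 0.1, the smallest this design allows (0.125 adjusted over 5 pairs).

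The start-site regions of the mitotic group are shown first, since CCNA2, CCNB1 and CDK1 are known to share control by CCAAT boxes and by the cell cycle homology region, an element read by the DREAM and MuvB complexes. RefSeq start sites (GRCh38.p14) gave a window of 300 bases, from 250 before to 50 after the start, for 7 of the 10 genes. CCND1, CCNE2 and CDK2 had no entry. The windows are chr4:121823834-121824133 on the minus strand for CCNA2, chr5:69166900-69167199 on the plus strand for CCNB1 and chr10:60778081-60778380 on the plus strand for CDK1. They are written 5′ to 3′ along the gene, with matches in capitals to CCAAT, to the cell cycle homology words TTTGAA and TTTAAA as well as CTTGAA and TTCGAA, to the E2F words TTCCCGC and TTGGCGC, and to the TEAD word CATTCC, each searched on both strands.
CCNA2: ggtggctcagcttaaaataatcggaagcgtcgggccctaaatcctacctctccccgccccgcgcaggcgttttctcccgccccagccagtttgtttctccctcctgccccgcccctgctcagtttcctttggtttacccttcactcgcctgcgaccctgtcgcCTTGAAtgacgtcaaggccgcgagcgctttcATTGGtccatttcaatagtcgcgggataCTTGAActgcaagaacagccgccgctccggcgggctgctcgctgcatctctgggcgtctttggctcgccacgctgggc
CCNB1: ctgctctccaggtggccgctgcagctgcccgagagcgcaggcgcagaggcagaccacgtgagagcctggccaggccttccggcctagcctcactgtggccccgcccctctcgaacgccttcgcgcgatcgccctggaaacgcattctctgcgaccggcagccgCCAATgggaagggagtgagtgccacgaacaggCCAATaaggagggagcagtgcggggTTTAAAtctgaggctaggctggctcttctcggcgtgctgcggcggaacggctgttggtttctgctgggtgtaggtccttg
CDK1: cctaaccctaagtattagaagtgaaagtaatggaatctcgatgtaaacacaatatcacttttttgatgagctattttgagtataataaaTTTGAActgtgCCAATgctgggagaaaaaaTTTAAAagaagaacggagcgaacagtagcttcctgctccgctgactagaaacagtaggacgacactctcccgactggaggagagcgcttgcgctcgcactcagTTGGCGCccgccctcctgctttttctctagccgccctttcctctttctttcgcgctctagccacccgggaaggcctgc
CCAAT was found in 3 of the 7 windows, which are the 3 shown, and in 35.7% of 27305 promoters of the same length. CCNA2 and CCNB1 carried their last CCAAT match at 56 and 55 bases before the start (positions -56 and -55), and a homology word at -28 (CTTGAA) and -30 (TTTAAA). CCNA2 carried a further CTTGAA at -87, and CCNB1 a further CCAAT at -87. In CDK1 the words TTTGAA and TTTAAA lay at -161 and -131, CCAAT at -150, and the E2F word TTGGCGC at -28. TTGGCGC was found in 3.12% of all promoters. TTTAAA, which was also present in CCNE1, reads the same on both strands and was found in 12.3% of all promoters, CTTGAA in 11.2% and TTTGAA in 15.4%. CATTCC was in none of the 7 windows and in 14.0% of all promoters. TTCGAA and TTCCCGC were found in none of the 7 windows, and in 1.45% and 6.56% of all promoters. These matches are letters in a window and not measured sites.

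The genes of mitosis were examined first. CDK1 (ENSG00000170312, chromosome 10, 62538089 to 62554610, plus strand, GRCh37), the kinase that starts mitosis, was at 41.6, 37.5 and 19.2 FPKM in Con (replicates 1, 2 and 3, as throughout) and at 18.4, 15.1 and 14.0 FPKM in GLUP. The groups did not overlap, but Con replicate 3 lay next to GLUP replicate 1 and far below the other Con libraries. The means were 32.8 ± 11.9 FPKM (SD, n = 3) and 15.9 ± 2.31 FPKM (SD, n = 3), a ratio of 0.484. The difference on the log2 scale was -0.94 (SE 0.35), with an unadjusted p of 0.0234 and an adjusted p of 0.198 in limma.

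CCNB1 (ENSG00000134057, chromosome 5, 68462962 to 68474072, plus strand), whose protein activates CDK1 for mitosis, was the highest of the 10 genes in all 6 libraries. It was at 286, 164 and 182 FPKM in Con and at 131, 141 and 120.2 FPKM in GLUP. All GLUP values lay below the lowest Con value, and Con replicate 1 was far above the rest. The means were 211 ± 66.0 FPKM (SD, n = 3) and 131 ± 10.6 FPKM (SD, n = 3), a ratio of 0.621 and a log2 difference of -0.64 (SE 0.31; limma adjusted p 0.251). Without Con replicate 1 this difference was -0.40.

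CCNA2 (ENSG00000145386, chromosome 4, 122737599 to 122745038, minus strand) encodes cyclin A2, which acts from S phase to early mitosis. Its values were 4.04, 2.06 and 3.03 FPKM in Con and 3.27, 3.39 and 3.02 FPKM in GLUP. The GLUP values were close together and lay within the span of Con, so the decrease that the study states for CCNA2 was not seen in these libraries. The study lists several RNA-sequencing data sets, and its main text does not say which of them gave that decrease. In these libraries the log2 difference of CCNA2 was 0.09 (SE 0.27, adjusted p 0.844 in limma). It was -0.09 without Con replicate 2, 0.32 after trimmed mean scaling of the libraries and 0.57 once the trend in GC content and length had been taken out. Its locus is overlapped on the other strand by EXOSC9, and as counting by strand is not stated, the value of CCNA2 is uncertain to that extent.

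CCNE2 (ENSG00000175305, chromosome 8, 95891998 to 95908906, minus strand), a partner of CDK2 at entry into S phase, was at 2.91, 3.29 and 1.43 FPKM in Con and at 1.17, 1.25 and 0.455 FPKM in GLUP. The groups did not overlap, and Con replicate 3 again lay next to GLUP. The Con mean was 2.54 ± 0.984 FPKM (SD, n = 3) and the GLUP mean 0.956 ± 0.436 FPKM (SD, n = 3), for a log2 difference of -0.84 (SE 0.29), an unadjusted p of 0.0170 and an adjusted p of 0.198 in limma. CCNE2 reached the minimum of 1 FPKM over the 6 libraries only through its Con values, and NDUFAF6 overlaps it on the other strand. With a pseudocount of 0.1 in place of 1 its difference was -1.35.

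CCNE1 (ENSG00000105173, chromosome 19, 30302898 to 30315219, plus strand), the other cyclin E gene, was below the minimum and took its test from the fit without a filter. It was at 0.705, 0.564 and 0.363 FPKM in Con and at 0.559, 0.477 and 0.499 FPKM in GLUP, all inside the Con range. The log2 difference was -0.02 (SE 0.13), and 0.09 after trimmed mean scaling. CDK2 (ENSG00000123374, chromosome 12, 56360565 to 56366573, plus strand), the kinase that both E cyclins and cyclin A2 activate, was at 3.03, 0.814 and 2.13 FPKM in Con and at 2.71, 1.93 and 2.29 FPKM in GLUP. Con replicate 2 was the lowest of the 6 by far, and the log2 difference of 0.22 (SE 0.31, adjusted p 0.669 in limma) became -0.11 without it.

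Among the genes of G1, CDK4 (ENSG00000135446, chromosome 12, 58141510 to 58149796, minus strand) was the most abundant kinase gene in GLUP. Its values were 14.9, 3.92 and 15.6 FPKM in Con and 19.1, 18.0 and 14.7 FPKM in GLUP. The groups overlapped, since GLUP replicate 3 lay below the upper 2 Con values. The means of 11.5 ± 6.57 FPKM (SD, n = 3) and 17.3 ± 2.30 FPKM (SD, n = 3) gave a log2 difference of 0.73 (SE 0.46, adjusted p 0.329 in limma), which shrank to 0.16 without Con replicate 2. TSPAN31 overlaps CDK4 on the other strand.

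CDK6 (ENSG00000105810, chromosome 7, 92234235 to 92465887, minus strand), the other kinase of the D-type cyclins, was below the minimum in every library. It was at 0.398, 0.337 and 0.313 FPKM in Con and at 0.260, 0.195 and 0.268 FPKM in GLUP. All GLUP values were lower, with a log2 difference of -0.12 (SE 0.11, adjusted p 0.622 in limma without a filter) that is small because the scale is flat near 0. With a pseudocount of 0.1 it was -0.40, and the ratio of the means was 0.690.

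CCND1 (ENSG00000110092, chromosome 11, 69455924 to 69469242, plus strand) and CCND3 (ENSG00000112576, chromosome 6, 41902672 to 42018095, minus strand) encode D-type cyclins, which couple growth signals to CDK4 and CDK6. CCND1 was at 2.90, 1.43 and 2.08 FPKM in Con and at 2.53, 2.00 and 2.61 FPKM in GLUP, and LTO1 overlaps it on the other strand. CCND3 was at 1.36, 0.702 and 2.01 FPKM in Con and at 1.73, 1.61 and 1.23 FPKM in GLUP. Both genes overlapped between the groups, and Con replicate 2 held the lowest value of each. Their log2 differences were both 0.13 (SE 0.26), and without Con replicate 2 they were -0.04 and -0.09. CCND3 was also of the other sign, at -0.18, when the trend in base composition and length was taken out.

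**Figure D1:**
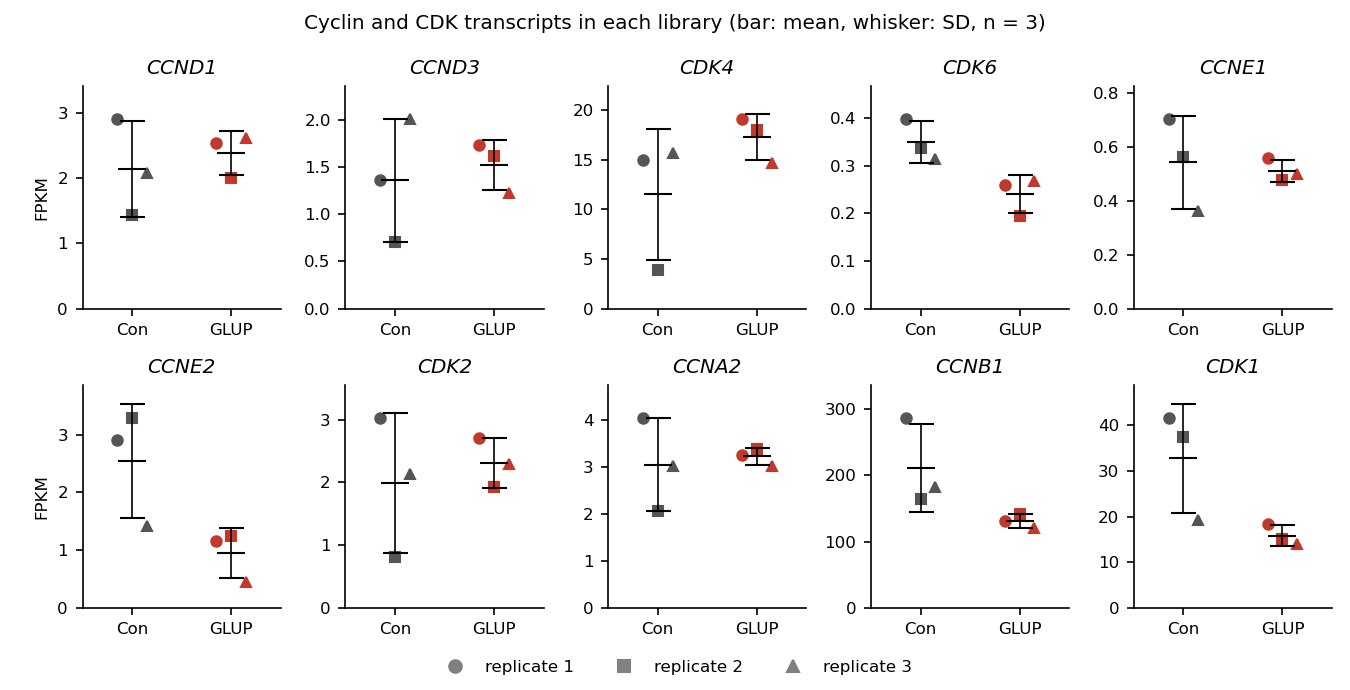
FPKM of the 10 genes in each library, each panel with its own vertical axis from 0, with circles, squares and triangles for replicates 1, 2 and 3, a bar for the mean and whiskers for the SD (n = 3). CCNB1, CDK1, CCNE2 and CDK6 have all GLUP values below all Con values, whereas the other 6 genes overlap.

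None of the 10 genes had GLUP values entirely above Con, beside 7.55% of all tested genes. Of the 4 that lay below, CCNB1, CDK1 and CCNE2 were among the 8 genes that reached the minimum, CCNE2 only through its Con values. The two-sided exact permutation p, over 3 Con and 3 GLUP libraries, was 0.1 for each of the 4, the smallest p this design allows, and 0.3 to 0.8 for the other 6. CDK1 and CCNE2, both lower, had an unadjusted p under 0.05 in limma, 2 of the 8 members tested, beside 17.2% of tested genes lower and 4.46% higher. The mean on the log2 scale was lower in GLUP for 3 of the 8 tested members, beside 65.5% of tested genes, and for 5 of all 10. The median log2 difference was 0.11 over the 8 and 0.03 over all 10, against -0.23 over all tested genes, a shift that trimmed mean scaling brought to -0.01. Relative to that median, CDK1 differed by -0.71, CCNE2 by -0.61, CCNB1 by -0.41 and CDK4 by 0.96. Leaving out Con replicate 3 took CDK1 to -1.27 (adjusted p 0.0299 in limma) and CCNE2 to -1.09 (adjusted p 0.0357), and no other member passed. In that fit 16.3% of tested genes passed as lower and 2.20% as higher. Con replicate 3 was the only Con library whose deviations rose with GC content (Spearman 0.452), as in the GLUP libraries (0.338 to 0.540). Con replicates 1 and 2, at -0.339 and -0.595, remained. CDK1 and CCNE2 have the lowest GC content of the 10 genes, and the part of GC content in that fit was not tested.

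The order of levels was compared within libraries. CCNB1 came first in all 6, and CDK1 second in each Con library, with no overlap between neighbours. In GLUP the mean of CDK4 was higher than that of CDK1, and CDK4 exceeded CDK1 in 3 of 3 GLUP libraries and 0 of 3 Con libraries, although their GLUP ranges overlapped. The GC content of their transcripts was 52.0% for CDK4 and 35.4% for CDK1, and its part in this order was not tested. CCNA2 had rank 4 by its mean in both groups. In Con, CCNE2, CCND1, CDK2 and CCND3 followed with means from 2.54 to 1.36 FPKM and overlapping ranges, and CDK2 was above CCND3 in 3 of 3 libraries. In GLUP, CCND1 and CDK2 overlapped at 2.38 and 2.31 FPKM, CCND3 was below CDK2 without overlap, and CCNE2 had rank 8, below CCND3 in 3 of 3 libraries although their ranges overlapped. CCNE1 and CDK6 had the lowest means in both groups.

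Ratios within a library were compared for 5 pairs, as log2 of FPKM plus 0.1, an addition that weighs on genes under 1 FPKM such as CDK6 and CCNE1. The ratio of CCNB1 to CCNA2 was 6.11, 6.24 and 5.87 in Con and 5.28, 5.34 and 5.27 in GLUP, on the log2 scale. All GLUP values were lower and lay close together, and the difference in means was -0.77. The transcripts of both genes have the same GC content, 41.9%, but lengths of 2029 (CCNB1) and 2748 bases (CCNA2). With the trend in GC content and length removed, the log2 differences of CCNB1 and CCNA2, each taken alone, were -0.15 and 0.57. The ratio itself was not tested with the trend removed. The difference in mean ratio ran from -0.88 to -0.69 when single libraries were left out or a pseudocount of 1 was used. The exact permutation p was 0.1, the smallest possible, and 0.125 adjusted over the 5 pairs.

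The ratio of CDK1 to CDK2 was 3.74, 5.36 and 3.11 in Con and 2.72, 2.91 and 2.56 in GLUP, a difference of -1.34. That of CCNE2 to CCNE1 was 1.90, 2.35 and 1.72 in Con and 0.94, 1.22 and -0.11 in GLUP, a difference of -1.31. That of CDK6 to CDK4 was -4.91, -3.20 and -5.25 in Con and -5.74, -5.94 and -5.33 in GLUP, a difference of -1.21. In these 3 pairs the GLUP values lay below the Con values, with the same exact permutation p of 0.1 (0.125 adjusted), and the GC content of the first gene less that of the second was -12.4, -17.1 and -12.3 percentage points. Without Con replicate 2 the differences of CDK1 to CDK2 and of CDK6 to CDK4 were -0.70 and -0.59, and with a pseudocount of 1 those of CCNE2 to CCNE1 and of CDK6 to CDK4 were -0.82 and -0.85. The ratio of CCND3 to CCND1 overlapped between the groups, with a difference of 0.06 (exact permutation p 0.9).

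**Figure D2:**
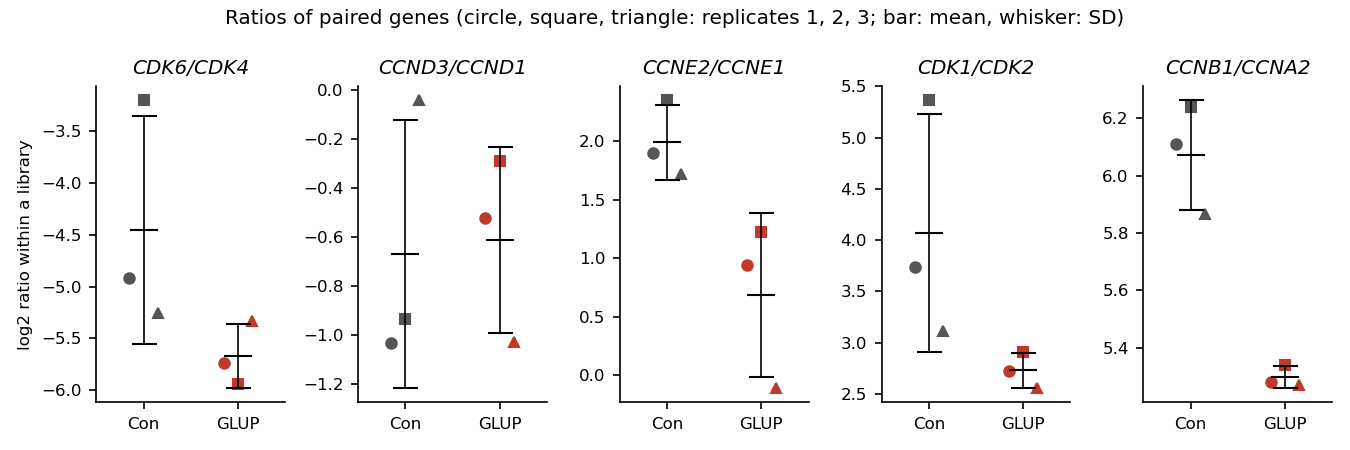
The log2 ratio of 5 gene pairs within each library, in Con and GLUP, with a symbol per replicate, a bar for the mean and whiskers for the SD (n = 3); the vertical axes do not start at 0. CCNB1 to CCNA2 lies between 5.27 and 5.34 in GLUP and between 5.87 and 6.24 in Con, and CCND3 to CCND1 overlaps.

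Base composition was set beside the differences. The canonical transcripts of CCNE2 and CDK1 were the poorest in GC among the 10, at 34.6% and 35.4%, followed by CDK6 at 39.7% and by CCNA2 and CCNB1 at 41.9%, while the median of tested genes was 47.2%. CDK4 was at 52.0% and CCND3 at 60.0%. With the trend in GC content and length removed from each library, the log2 difference of CDK1 was -0.25 (SE 0.22), that of CCNE2 -0.15 (SE 0.23) and that of CCNB1 -0.15 (SE 0.27). CDK4 was at 0.73 (SE 0.37), and none of these 4 genes passed, with adjusted p-values of 0.310 or higher in limma. The removal also centred the libraries, with a median difference over all tested genes of -0.23 before it and 0.01 after it. Relative to that median, CDK4 was at 0.96 before the removal.

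**Figure D3:**
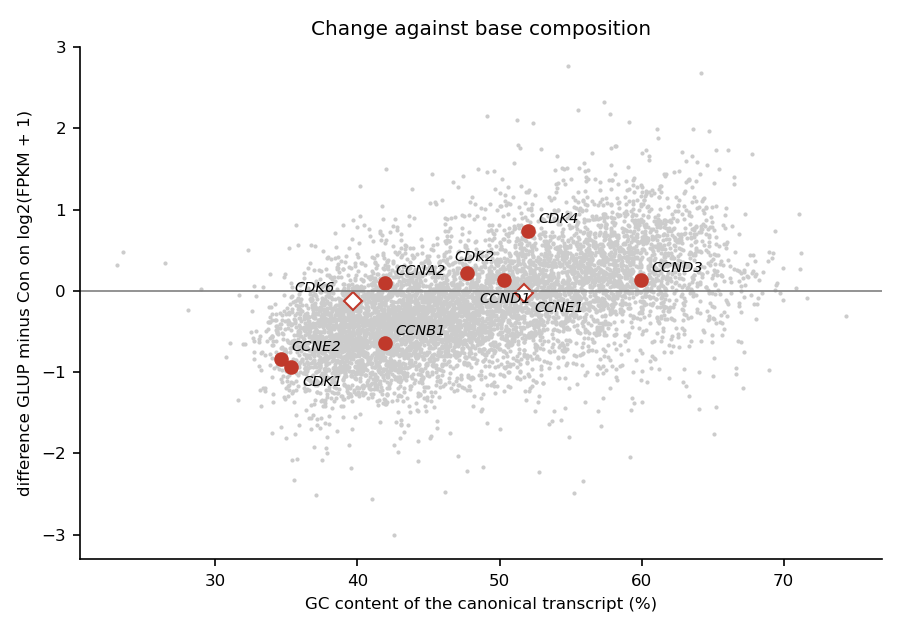
Difference between GLUP and Con on log2(FPKM + 1) against the GC content of the transcript, with grey points for tested genes, filled circles for the 8 members tested and open diamonds for CCNE1 and CDK6, which took their value from the fit without a filter. CDK1 and CCNE2 sit at the low-GC end among genes with negative differences, and CCNA2 and CCNB1 share a GC content but lie at 0.09 and -0.64.

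**Figure D4:**
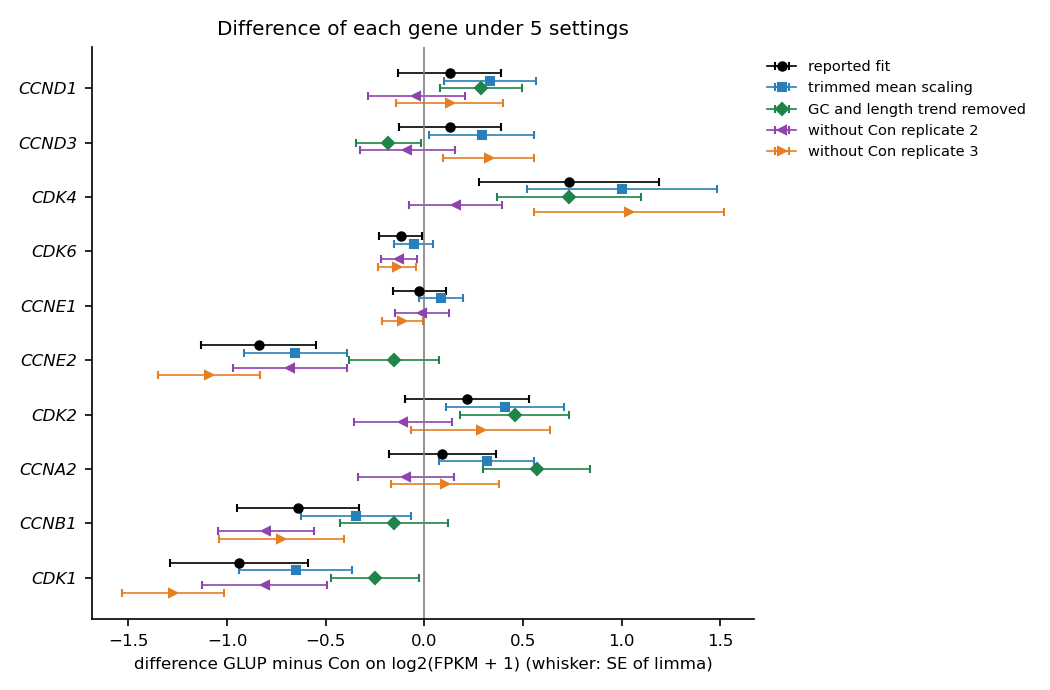
Difference between GLUP and Con for each gene under 5 settings, with whiskers for the SE of limma; the trend-removed value is not given for CCNE1 and CDK6. CDK1, CCNB1 and CCNE2 are negative and CDK4 positive in each setting shown, CDK6 is negative in the 4 given for it, and CCNA2, CCND1, CCND3, CCNE1 and CDK2 cross 0.

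Other cyclins were then described. Of 18 genes, 11 were tested, 9 with a lower and 2 with a higher mean in GLUP, and none passed. The D-type family was dominated by CCND2, which held 85.9% to 88.6% of the summed FPKM of the 3 D-type cyclins in Con and 72.3% to 76.7% in GLUP. CCND2 was at 30.2, 16.5 and 24.8 FPKM in Con and at 11.1, 11.8 and 12.6 FPKM in GLUP, with no overlap and a log2 difference of -0.91 (SE 0.31, adjusted p 0.198 in limma). CCND2-AS1 overlaps it on the other strand. With the GC and length trend removed the difference of CCND2 was -0.57 (SE 0.30). CCNB2, the second mitotic B-type cyclin, overlapped between the groups at -0.36 (SE 0.32), and was at -0.14 without Con replicate 1, -0.07 after trimmed mean scaling and -0.01 with the trend removed. CCNC, the cyclin of the Mediator kinase module, was lower without overlap at -0.94 (SE 0.30), which became -0.27 with the trend removed.

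The CDK-activating kinase, a trimer of CDK7, CCNH and MNAT1 that phosphorylates the activation loop of CDKs, had lower means in GLUP for all 3 subunits. CDK7 was at 12.0, 14.4 and 5.32 FPKM in Con and at 4.40, 4.81 and 5.04 FPKM in GLUP. CCNH was at 38.8, 31.2 and 22.0 FPKM in Con and at 15.9, 16.6 and 15.6 FPKM in GLUP. MNAT1 was at 12.3, 13.5 and 7.69 FPKM in Con and at 4.75, 5.49 and 7.31 FPKM in GLUP. None of the 3 genes overlapped between the groups, with Con replicate 3 the nearest to GLUP in each, and 22.7% of all tested genes likewise lay entirely below Con. Their log2 differences were -0.91 (SE 0.36), -0.86 (SE 0.31) and -0.81 (SE 0.31), and none passed. They were -0.33, -0.39 and -0.17 once that trend was taken out.

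Of 16 other CDKs, 7 were tested, 4 lower and 3 higher. CDK10 and CDK5 had GLUP values entirely above Con, with log2 differences of 0.83 (SE 0.27) and 0.70 (SE 0.38), as 7.55% of all tested genes lay entirely above. CDK5 was at 0.26 without Con replicate 2, and CDK10 at 0.48 with the trend removed. CDK10 had all Con values under 1 FPKM and reached the minimum only through GLUP. CDK11A and CDK11B are near-identical copies whose reads could be split, and their values are uncertain.

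CDKN3, a phosphatase that removes the activating phosphate from CDKs, had the largest difference of the 46 genes tested in the wider lists. It was at 617, 640 and 277 FPKM in Con and at 148, 163 and 157 FPKM in GLUP, a log2 difference of -1.61 (SE 0.36; limma adjusted p 0.194). This was -1.31 after trimmed mean scaling and -1.19 when the trend in GC content and length was taken out, and the groups did not overlap. Of the 8 genes of its list, 5 were tested, 4 lower and 1 higher. CDKN2C (p18) lay between 6.24 and 12.4 FPKM with overlap and a log2 difference of -0.03 (0.24 after trimmed mean scaling), and was named after its values were seen. CDKN1A (p21) lay between 1.17 and 1.68 FPKM with overlap and a log2 difference of 0.06 (SE 0.21), which was -0.16 with the trend removed and changed sign without Con replicate 2. CDKN1B (p27) stayed under 0.5 FPKM. CDKN2D, which reached the minimum only through Con, was at -0.40 (SE 0.25) and overlapped between the groups, as did CDKN2A, whose value of 24.2 FPKM in Con replicate 1 stood against 2.53 to 5.23 FPKM in the other 5 libraries.

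Among regulators of CDK phosphorylation and assembly, 8 of 9 were tested, 4 lower and 4 higher. WEE1, the kinase that holds CDK1 inactive, was at 2.64, 4.32 and 1.19 FPKM in Con and at 0.677, 1.11 and 0.661 FPKM in GLUP. CDC25C, the phosphatase that reverses this, was at 3.82, 2.87 and 1.67 FPKM in Con and at 1.24, 1.60 and 1.44 FPKM in GLUP. Both antagonists were lower without overlap, at -0.95 (SE 0.32) and -0.60 (SE 0.27) on the log2 scale, and neither passed. With the trend removed they were at -0.64 and -0.30. WEE1 had a GLUP mean under 1 FPKM and reached the minimum only through Con.

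The retinoblastoma and E2F list had 8 of 16 genes tested, 4 in each direction. E2F6 and TFDP2 were lower without overlap, at -0.79 (SE 0.25) and -0.73 (SE 0.29), and at -0.40 and -0.43 with the trend removed. E2F6 had a GLUP mean under 1 FPKM and reached the minimum only through Con. MYBL2, at 0.72 (SE 0.42), and E2F1, at 0.32 (SE 0.24), overlapped between the groups, and were at 0.26 and 0.12 without Con replicate 2. E2F1 reached the minimum only through GLUP, and RB1 stayed under 0.6 FPKM. Of 10 genes of cyclin destruction, 7 were tested, 5 lower and 2 higher. CUL1, the scaffold of SCF ubiquitin ligases, was lower without overlap at -0.65 (SE 0.27), and at -0.24 with the trend removed. FBXW7, which recognizes cyclin E, at -0.64 (SE 0.32), and CDC20, an activator of the anaphase-promoting complex, at 0.89 (SE 0.49), overlapped. FBXW7 reached the minimum only through Con. Without Con replicate 2, FBXW7 was at -0.31 and CDC20 at 0.27.

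Over the 6 lists, 77 genes were found and 46 were tested, none with an adjusted p under 0.05 in limma. The unadjusted p was under 0.05 for 11 lower and 1 higher, beside 17.2% and 4.46% of all tested genes. Entirely below Con lay 14 genes and entirely above it 3, beside 22.7% and 7.55%. In these counts WEE1 and E2F6, both lower, reached the minimum only through Con, and CDK10, higher, only through GLUP. The median log2 difference of the 46 genes was -0.33, beside -0.23 over all tested genes. All 4 proliferation markers overlapped between the groups, 3 with a lower and 1 with a higher mean in GLUP. MKI67 was at 1.40 to 2.96 FPKM in Con and 1.18 to 1.54 FPKM in GLUP. PCNA was at 51.6 to 74.3 and 59.1 to 66.8 FPKM, and TOP2A at 8.23 to 21.6 and 6.83 to 9.47 FPKM. The log2 differences were -0.72 (SE 0.36) for TOP2A, -0.37 for MKI67, -0.005 for PCNA and 0.18 for MCM2, and none passed. That of TOP2A was -0.19 with the trend removed. Without Con replicate 3 it was -1.06 (adjusted p 0.0466 in limma), in a fit where 16.3% of tested genes passed as lower and 2.20% as higher.

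**Figure D5:**
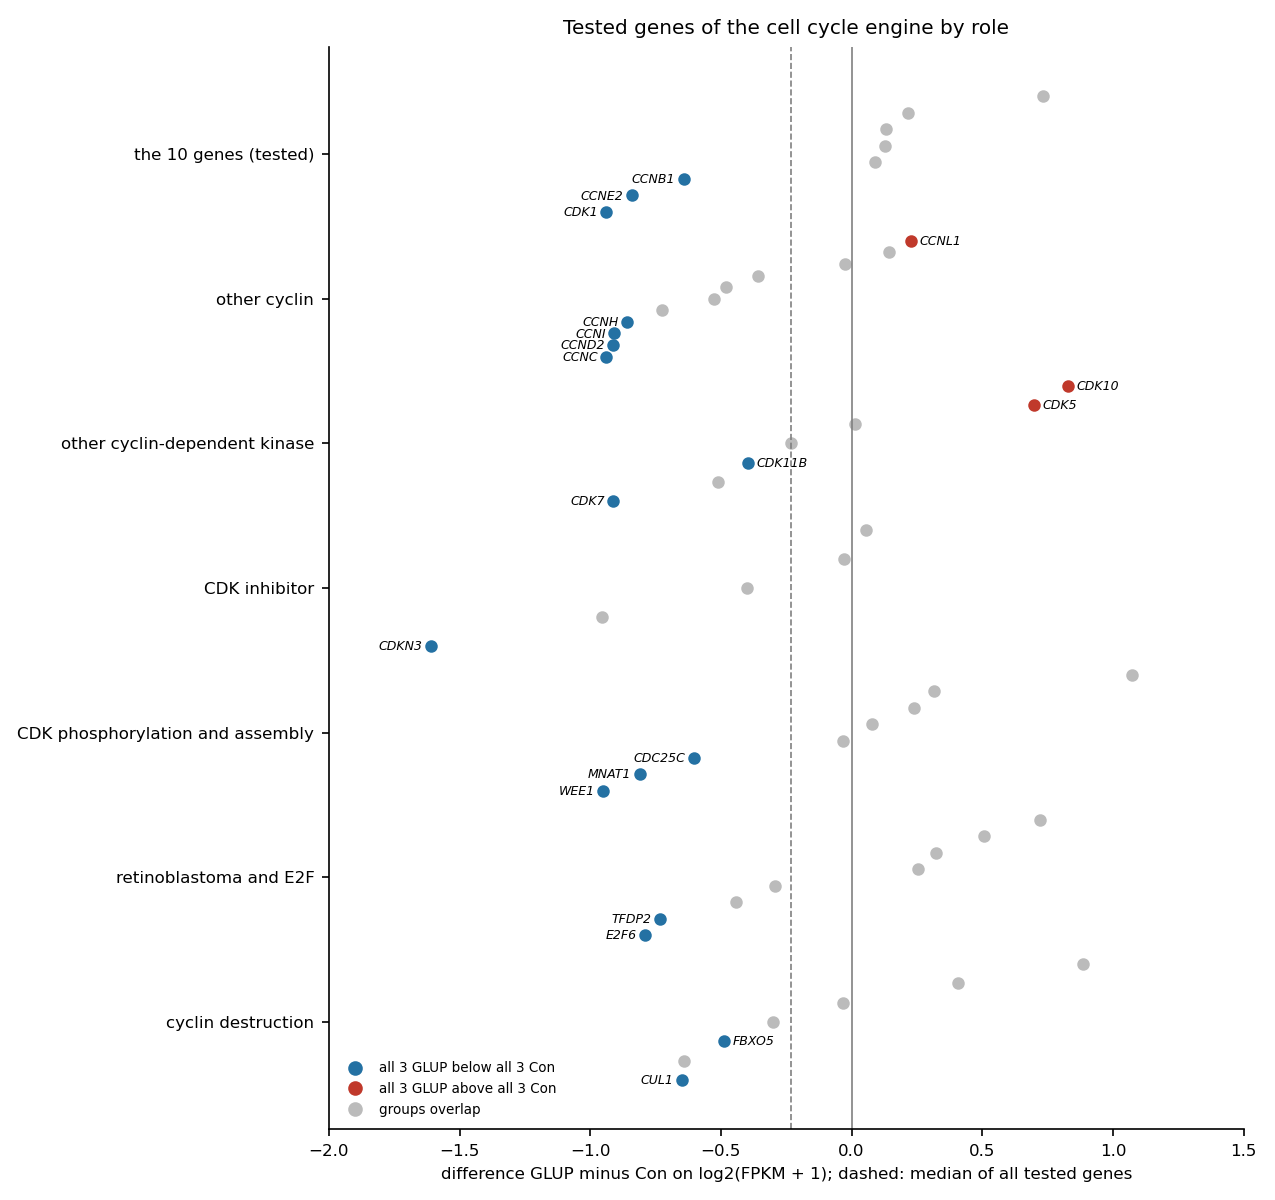
Difference between GLUP and Con on log2(FPKM + 1) for tested genes by role, blue where all 3 GLUP values lie below all 3 Con values, red where they lie above and grey where the groups overlap, with the median of all tested genes as a dashed line. CCNI, CCNL1, CDK11B and FBXO5 were labelled after their values were seen; CDKN3 lies farthest left at -1.61, and CDK1, CCNE2 and CCNB1 lie between -0.94 and -0.64.

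The genes whose pattern most resembled CCNA2 were sought among 7405 tested genes, by Pearson correlation over 6 libraries after centring each library on its median. RPS2P32, COQ9, FKBP1A, EIF3FP3 and PYGB had the highest values, from 0.994 to 0.999. Within the 10 genes, CCNA2 followed CDK4 (0.987), CDK2 (0.947) and CCND1 (0.910), and hardly CCNB1 (0.09). On this centred scale CCNA2 was at 1.43 in Con replicate 2 and at 2.05 to 2.28 in the other 5 libraries, and Con replicate 2 was also the lowest library of CDK4, CDK2 and CCND1. CDK1 followed CCNE2 (0.884) and ran against CDK4 (-0.740). The transcripts of CDK1 and CCNE2 were at 35.4% and 34.6% GC and that of CDK4 at 52.0%. The libraries differed in how their deviations followed GC content, and its part in these correlations was not tested.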

How the data were processed

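RNA from HGC-27 cells was measured in 6 libraries, 3 Con and 3 GLUP. The methods mention biological replicates, and the labels do not say which libraries came from separate cultures, so p-values measure the spread between these samples, which may be technical. The deposited table holds FPKM per gene, made by the authors and not scaled further. The submitters' processing notes name HISAT2, Cufflinks, RSEM and GRCh38.p10, without roles or versions, whereas the identifiers carry GENCODE suffixes of a lift to GRCh37. Gene coordinates are therefore from GENCODE 44 lifted to GRCh37, and promoters from RefSeq. The 49 pseudoautosomal copies, all at 0, were summed with their counterparts. Symbols came from an identifier table (62162 of 62443 genes). Low values were searched for steps of 1 read in genes with a single transcript. At most 7.34% of low values lay within 1% of 1, 2 or 4 times the commonest value of FPKM times length, so reads were not recovered, and count tests were not used.

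The scale was log2(FPKM + 1). Genes averaging 1 FPKM or more (7406) entered a two-sided limma 3.58.1 test in R 4.3.3, using eBayes with trend and Benjamini-Hochberg adjustment over all of them. CCNE1 and CDK6, below the minimum, took values from the same fit over 31444 genes above 0. The fit was tested on simulated data. GC content and length were those of the canonical or else the longest transcript (99.8% of tested genes). The trend was a loess fit (span 0.5) of each library's deviation from the gene mean, made without the groups. Its removal also centres each library, and takes out a difference between groups that follows GC content or length. For trimmed means, 30% of genes at each end of the ratios and 5% at each end of the levels were left out. The trend and median centring were not applied below the minimum.

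The 10 genes and the lists were chosen with earlier results of these data known. All 10 were named, and of each wider list at most 3 genes with the smallest p, plus CDKN1A, CDKN1B, RB1, E2F1, WEE1, CCND2 and CCNB2. Cell type markers were epithelial, mesenchymal, gastric, fibroblast, immune and endothelial, 24 of 25 matched. The endothelial VWF and CDH5 were at or near 0. Permutation tests used scipy 1.17.1. Other settings are given with the closing observations.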

Additional observations from a re-analysis of the deposited data

How the results depend on the processing

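No gene passed an adjusted p of 0.05 in limma, while 1606 had an unadjusted p under 0.05 (330 higher and 1276 lower in GLUP). The count of passing genes was 1 with a minimum of 5 FPKM and with eBayes without trend (CLPTM1L), 2 after removal of the GC and length trend (CLPTM1L and HSPB1), and 0 with a pseudocount of 0.1, no filter, trimmed mean scaling or median centring. Leaving out 1 library gave 0 to 1367, the high value without Con replicate 3, and 3 without Con replicate 2. None of the 10 cyclin and CDK genes passed in any of these settings except CDK1 and CCNE2 without Con replicate 3, so their count ran from 0 to 2. The Con libraries left in that setting were those whose deviations fell with GC content. Same-numbered libraries were not paired, with correlations of 0.13, -0.01 and -0.17 between the deviations of same-numbered libraries. The replicate block gave 1 passing gene, as did the replicate block on trend-removed values, with 1 (ENSG00000261553 both times), and 0 of the 10 genes. Trimmed mean scaling moved the share of tested genes with a lower mean from 65.5% to 50.7%. The median difference of the 10 genes ran from -0.10 without Con replicate 2 to 0.19 with trimmed mean scaling. CCNB1, CCNE2 and CDK1 were negative and CDK4 positive in every alternative run, with ranges of -0.80 to -0.15, -1.35 to -0.15, -1.27 to -0.25 and 0.16 to 1.04. CDK6 was negative in all 11 run for it. CCNA2, CCND1 and CDK2 changed sign in 1 of 14, CCND3 in 3 of 14 and CCNE1 in 2 of 11. With no read counts, the precision of the genes under 1 FPKM is not known.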
